A study of Mus musculus with 4 samples.

Results

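The 40 genes described here are 16 whose transcripts are used to mark DNA synthesis, the S phase of the cell cycle, and 24 used to mark the G2 phase and mitosis, written G2/M. They were taken by gene symbol from the 31253 genes of the count tables, and all 40 symbols were found. Counts came from single-cell RNA-seq of CT26 tumours, grown in mice from an established colon carcinoma line, and of tumour-draining lymph nodes (TDLN). Each tissue had 1 library from mice given NanoCa, which the series title describes as a lipid nanoparticle carrying a calcium crystal and meant for immunotherapy through interferon beta, and 1 library tagged as mock, with a treatment tag of no treatment. All mice were female and 4 to 8 weeks old, and neither the strain nor how many mice stand behind a library is given in these sources. A further label field on treatment reads NanoCa in all 4 libraries, both mock ones included, so each NanoCa to mock ratio depends on the names and tags being right. Cells were stained for CD45, the leukocyte protein encoded by Ptprc, and sorted through a gate that is not given. With 1 library per group there was no replicate and no test, and intervals are exact 95% intervals that cover counting error only.

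Cells copy their DNA in S phase and divide it in mitosis, and the transcripts for each task are made shortly before they are needed. Many S genes are controlled by E2F factors, which the retinoblastoma protein holds back until a cell commits to division. Many G2/M genes are held silent in resting and early-cycle cells by the DREAM complex and are later driven by B-Myb and Foxm1, through a promoter element called the CHR (cell cycle genes homology region), often with CCAAT boxes bound by NF-Y. In tumours these genes follow proliferating carcinoma cells and dividing lymphocytes, and in lymph nodes they mark activated T cells and the rapidly dividing B cells of germinal centres.

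The S genes cover the successive steps of replication. Mcm2, Mcm3, Mcm4, Mcm5, Mcm6 and Mcm7 encode the subunits of the replicative helicase, Cdc6 helps to load it, and Cdc45 and the GINS subunit Gins2 activate it. Rrm1 and Rrm2 (ribonucleotide reductase), Tyms (thymidylate synthase) and Dut (dUTPase) supply nucleotides, Ung removes uracil from DNA, Uhrf1 keeps DNA methylation through replication, and Pcna is the sliding clamp of the DNA polymerases. Among the G2/M genes, Cdk1 and its cyclins Ccna2, Ccnb1 and Ccnb2 drive entry into mitosis together with the kinases Plk1, Aurka and Aurkb. Birc5 (survivin) acts with Aurkb, Bub1 serves the spindle checkpoint, and Pbk is a mitotic kinase. Cenpa, Cenpe, Cenpf and Spc25 belong to centromeres and kinetochores. Tpx2, Hmmr, Nusap1, Kif11 and Kif23 build the spindle or the cleavage site. Ube2c and Cdc20 work with the anaphase-promoting complex, which destroys the securin Pttg1. Top2a untangles DNA, and Mki67 encodes the proliferation antigen Ki-67.

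The promoters of these genes are shown because E2F-type and CHR-type words are the known promoter elements of the S and the G2/M set. RefSeq promoters on GRCm38.p6, each running from 250 bases before to 50 after a gene start, were found for 34 of the 40 genes. Both strands were searched for the word TTCCCGC and its E2F-type variants TTCGCGC together with TTGGCGC as well as TTGCCGC, for TTTGAA and the second CHR-type word TTCGAA, and for the CCAAT box, and matches could overlap. Of 16 promoters of 14 S genes, 10 (62.5%) held an E2F-type word, against 4 of 20 G2/M promoters (20%) and 9.57% of all 32851 promoters. A CHR-type word lay in 3 S promoters (18.8%), 15 G2/M promoters (75.0%) and 19.2% of all promoters. CCAAT was in 12 S promoters (75.0%), 17 G2/M promoters (85%) and 37.4% of all promoters, and the same 15 G2/M promoters that held a CHR-type word also held CCAAT, against 7.52% of all promoters. Mean GC content was 58.9% in S promoters, 58.8% in G2/M promoters and 53.8% over all, and matched letters are not shown to be sites. Mcm4, Gins2, Aurkb, Ccna2, Pbk and Tpx2 had no entry in the promoter table.

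Mcm6, Mcm3 and Rrm2 are printed below for the S set, each read 5′ to 3′ in the direction of its gene with matches in capitals. Mcm6 and Mcm3 were picked for the most E2F-type words, Mcm5 and Mcm7 having as many as Mcm3, so they are not typical of the set. Promoters of Mcm2, Cdc45, Tyms, Dut, Ung and Pcna held no E2F-type word. The promoter of Mcm6 (chr1:128359656-128359955, minus strand) held 5 E2F-type words, of which 4 overlapped in pairs, and that of Mcm3 (chr1:20820263-20820562, minus strand) held 3, while Rrm2 (chr12:24708004-24708303, plus strand) held 1.
Mcm6: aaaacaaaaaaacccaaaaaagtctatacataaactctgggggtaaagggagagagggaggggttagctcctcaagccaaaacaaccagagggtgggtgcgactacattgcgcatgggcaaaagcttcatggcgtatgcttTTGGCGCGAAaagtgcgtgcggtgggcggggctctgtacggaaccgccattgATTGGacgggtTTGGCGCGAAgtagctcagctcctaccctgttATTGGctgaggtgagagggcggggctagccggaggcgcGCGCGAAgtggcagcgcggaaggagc
Mcm3: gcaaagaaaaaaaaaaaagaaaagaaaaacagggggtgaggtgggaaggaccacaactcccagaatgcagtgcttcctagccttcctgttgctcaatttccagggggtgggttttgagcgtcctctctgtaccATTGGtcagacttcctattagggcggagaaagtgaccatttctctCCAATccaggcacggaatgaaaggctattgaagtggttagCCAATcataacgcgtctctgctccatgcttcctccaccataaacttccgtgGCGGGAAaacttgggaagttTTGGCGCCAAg
Rrm2: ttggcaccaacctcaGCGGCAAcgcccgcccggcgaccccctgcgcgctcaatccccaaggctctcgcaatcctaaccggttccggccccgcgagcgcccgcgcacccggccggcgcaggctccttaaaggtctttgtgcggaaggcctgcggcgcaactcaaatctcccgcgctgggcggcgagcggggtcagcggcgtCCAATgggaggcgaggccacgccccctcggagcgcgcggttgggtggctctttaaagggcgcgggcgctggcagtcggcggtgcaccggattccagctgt
Top2a, Cdk1 and Ube2c are printed for the G2/M set, the first pair picked for many CHR-type words and Ube2c for its UMIs. Promoters of Birc5, Ccnb1, Cenpe, Nusap1 and Pttg1 held no CHR-type word. Top2a (chr11:99024140-99024439, minus strand) held 4 CHR-type words and 6 CCAAT, and Ube2c (chr2:164769679-164769978, plus strand) held 1 and 6. Cdk1 (chr10:69352863-69353162, minus strand) held 2 CHR-type words, 3 CCAAT and 2 E2F-type words.
Top2a: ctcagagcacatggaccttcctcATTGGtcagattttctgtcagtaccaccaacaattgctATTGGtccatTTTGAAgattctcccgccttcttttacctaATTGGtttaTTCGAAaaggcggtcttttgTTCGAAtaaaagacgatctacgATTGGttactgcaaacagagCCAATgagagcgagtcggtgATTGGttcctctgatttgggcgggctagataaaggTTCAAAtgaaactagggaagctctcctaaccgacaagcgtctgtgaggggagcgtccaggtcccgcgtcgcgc
Cdk1: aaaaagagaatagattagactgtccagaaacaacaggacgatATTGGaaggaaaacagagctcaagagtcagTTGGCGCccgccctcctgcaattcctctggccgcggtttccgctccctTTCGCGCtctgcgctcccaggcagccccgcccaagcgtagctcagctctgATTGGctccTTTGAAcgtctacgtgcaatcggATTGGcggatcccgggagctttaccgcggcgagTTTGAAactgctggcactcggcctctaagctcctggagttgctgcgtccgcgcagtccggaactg
Ube2c: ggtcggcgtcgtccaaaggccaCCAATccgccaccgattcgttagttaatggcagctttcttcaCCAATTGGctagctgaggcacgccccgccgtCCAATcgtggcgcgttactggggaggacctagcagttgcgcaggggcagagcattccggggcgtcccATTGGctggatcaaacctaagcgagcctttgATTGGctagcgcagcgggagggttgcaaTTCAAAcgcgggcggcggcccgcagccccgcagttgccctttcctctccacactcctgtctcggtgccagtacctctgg

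The libraries held 167924801 UMIs over 11287 barcodes (tumour NanoCa), 148121144 over 9404 (tumour mock), 74909974 over 11072 (TDLN NanoCa) and 106579362 over 10400 (TDLN mock). After filters and doublet removal, 10209, 8592, 10043 and 9425 cells remained in that order, and pairs of libraries shared 121 to 183 barcodes (1.29 to 1.65% of the smaller library). Between 87.1 and 95% of cells of a library fell into 5 classes, and 3.66 to 9.73% were in clusters left without a name. The labels call the cells tumour-infiltrating immune cells, yet 6334 of 10209 tumour NanoCa cells and 5349 of 8592 tumour mock cells lay in clusters with little Ptprc (2.21 and 2.60 CPM, UMIs of a gene scaled to 1000000 UMIs of the class, against 516 and 530 CPM in T cells). These are the carcinoma-like cells of the data. They are called Rhox5-high cells below, because Rhox5, a homeobox gene, was at the highest level of their fixed markers (339 CPM with NanoCa, 341 with mock in the tumour, 404 and 356 in TDLN). Krt18 was at 21.8 to 55.2 CPM and Krt20 at 16.5 to 45.3 CPM, while Epcam, Cdh1, Cldn3, Cldn4, Cldn7, Krt7 and Krt19 were each under 1 CPM in all 4 libraries. The leading genes of 1 of the 10 tumour clusters in this class, Aspn, Ogn and Mgp, are matrix genes rather than epithelial ones.

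Summed over all S genes, tumour Rhox5-high cells held 1179 CPM (1173 to 1185, 6334 cells) in the NanoCa library and 1060 CPM (1054 to 1065, 5349 cells) in the mock library. Their summed G2/M level was 2320 CPM (2312 to 2329) and 2073 CPM (2065 to 2081), the highest of the 5 tumour classes in both libraries, though in the mock library the interval of its ratio to B cells (2055 CPM) included 1. Tumour B cells had the highest S level with NanoCa, 1554 CPM (1481 to 1630, 475 cells), against 1143 CPM (1069 to 1221, 269 cells) with mock, where NK cells led with 1246 CPM. Tumour T cells (715 and 883 cells) held 982.3 and 1048 CPM of S genes and 1532 and 1534 CPM of G2/M genes with NanoCa and mock. Tumour NK cells (204 and 271 cells) held 1262 and 1246 CPM of S genes and 1402 and 1688 CPM of G2/M genes. Myeloid cells were lowest for both sets in both tumour libraries, with 623.9 and 614.2 CPM of S genes and 1158 and 1065 CPM of G2/M genes.

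In TDLN the classes lay further apart. Rhox5-high cells, 329 with NanoCa and 1025 with mock, held 2841 and 2468 CPM of G2/M genes and 1199 and 1351 CPM of S genes. T cells, the most numerous class (6316 and 5078 cells), held 500.3 and 645.3 CPM of G2/M genes and 630.8 and 729.2 CPM of S genes. B cells (2553 and 1995 cells) held 1083 and 1833 CPM of G2/M genes and 919.0 and 1345 CPM of S genes. NK cells (112 and 174 cells) held 790.0 and 1122 CPM of G2/M genes, and myeloid cells (233 and 341 cells) 840.5 and 553.6 CPM. All 24 G2/M genes were higher in Rhox5-high cells than in T cells in both TDLN libraries, and 23 of 24 with NanoCa and 17 of 24 with mock were higher than in B cells. In the tumour 19 of 24 (NanoCa) and 18 of 24 (mock) were higher than in T cells. All comparisons of level are of 1 gene or 1 summed set between classes, since UMI counts were not divided by transcript length.

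**Figure D1:**
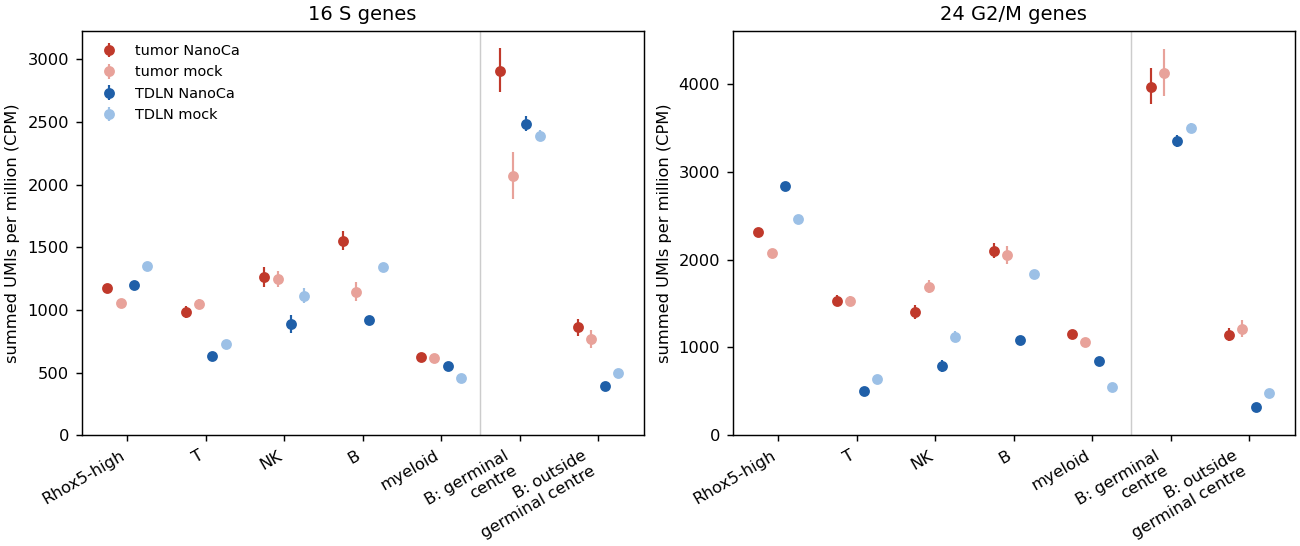
Summed level of the 16 S genes and of the 24 G2/M genes (vertical axes, CPM of the class) in each cell class of the 4 libraries, with exact Poisson 95% intervals that cover counting error only. Of the Rhox5-high, T, NK, B and myeloid classes, Rhox5-high cells lie highest for G2/M genes in each library, level with B cells in tumour mock (2073 and 2055 CPM). Germinal-centre B cells, a part of the B class, lie above them in each library (3969 and 4122 CPM in tumour NanoCa and mock, 3350 and 3501 CPM in TDLN). TDLN T cells lie near 500.3 and 645.3 CPM.

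Immune classes also held Rhox5, which those cells should lack, at 39.6 to 106 CPM in the immune classes of the tumour and 6.72 to 19.1 CPM in those of TDLN. Were G2/M transcripts to come along with it in the ratio found in Rhox5-high cells, they would make up 42.4 and 28.9% of the G2/M level of tumour T cells with NanoCa and mock, 23.0 and 17.1% in NK, 29.8 and 31.4% in B and 23.5 and 22.6% in myeloid cells. In tumour neutrophils, which are known not to divide, the same sum came to 87.4 and 102% of their G2/M level of 1480 and 1175 CPM. In TDLN the shares were 15 and 20.5% for T, 13.2 and 7.29% for NK, 7.21 and 5.86% for B and 5.62 and 11.2% for myeloid cells. These shares assume that fixed ratio, and how much free RNA entered each class was not tested.

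The 3 genes of each set with the most UMIs over the 4 libraries were Dut, Pcna and Rrm2 and Ube2c, Birc5 and Cenpa. Dut was at 248 and 189 CPM in tumour Rhox5-high cells with NanoCa and mock, and at 187 and 262 CPM in those of TDLN. In tumour B cells Dut was at 277 and 173 CPM, and in TDLN B cells at 128 and 229 CPM, so that the library with the higher value was the NanoCa one in the tumour and the mock one in TDLN for both classes. Pcna was at 155 and 156 CPM in tumour Rhox5-high cells and at 158 and 201 CPM in TDLN. Pcna stayed between 99.9 and 183 CPM in the tumour immune classes. Rrm2 was at 113 and 100 CPM in tumour Rhox5-high cells, 151 and 143 CPM in TDLN ones, and 28.7 and 41.2 CPM in TDLN T cells. Of the G2/M genes, Ube2c was at 542 and 466 CPM in tumour Rhox5-high cells and 666 and 523 CPM in TDLN ones. It was at 235 and 205 CPM in tumour T cells and at 44.3 and 74.8 CPM in TDLN T cells. Birc5 was at 192 and 159 CPM in tumour Rhox5-high cells, 212 and 201 CPM in TDLN ones and 33.4 and 45.7 CPM in TDLN T cells. Cenpa spread less between classes, with 148 and 131 CPM in tumour Rhox5-high cells, 152 and 162 CPM in TDLN ones and 88.9 and 96.3 CPM in TDLN T cells.

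Within a class the level varied from cluster to cluster. Both sets were left out of the genes used for clustering, but other genes of the cycle vary with them, so clusters are a description. Of the 10 tumour Rhox5-high clusters, 1 (713 cells with NanoCa, 695 with mock) led by histone genes and by Aurkb, Rrm2, Pbk and Spc25 held 1790 CPM of S genes and 4320 CPM of G2/M genes. The matrix-gene cluster was lowest at 629 and 767 CPM. A cluster led by Nppb, Il11 and Csf2 held 827 and 938 CPM, and one led by the interferon-induced Ifit1, Ifit3 and Cxcl10 held 1310 and 2580 CPM. In tumour T cells, a cluster of 148 cells with cytotoxic CD8 markers held 1670 CPM of S and 2310 CPM of G2/M genes, against 849 and 1330 CPM in the other. That cytotoxic cluster had 33 cells with NanoCa and 115 with mock. In TDLN T cells, 1 cluster of mixed markers had the highest Foxp3, Il2ra and Gzmb of the T clusters (241, 221 and 79.4 CPM) along with Cd4 and Cd8a (113 and 101 CPM). This Foxp3-high cluster held 1690 and 1730 CPM and carried 52.6% (NanoCa) and 51.4% (mock) of all G2/M UMIs of T cells on 11.1 and 11.4% of the cells. The 3 most populated T clusters, which carried naive markers, held 441 to 485 CPM of S genes and 299 to 356 CPM of G2/M genes. The germinal-centre B cluster of TDLN held 2430 and 3440 CPM, the highest S level of any TDLN cluster.

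**Figure D2:**
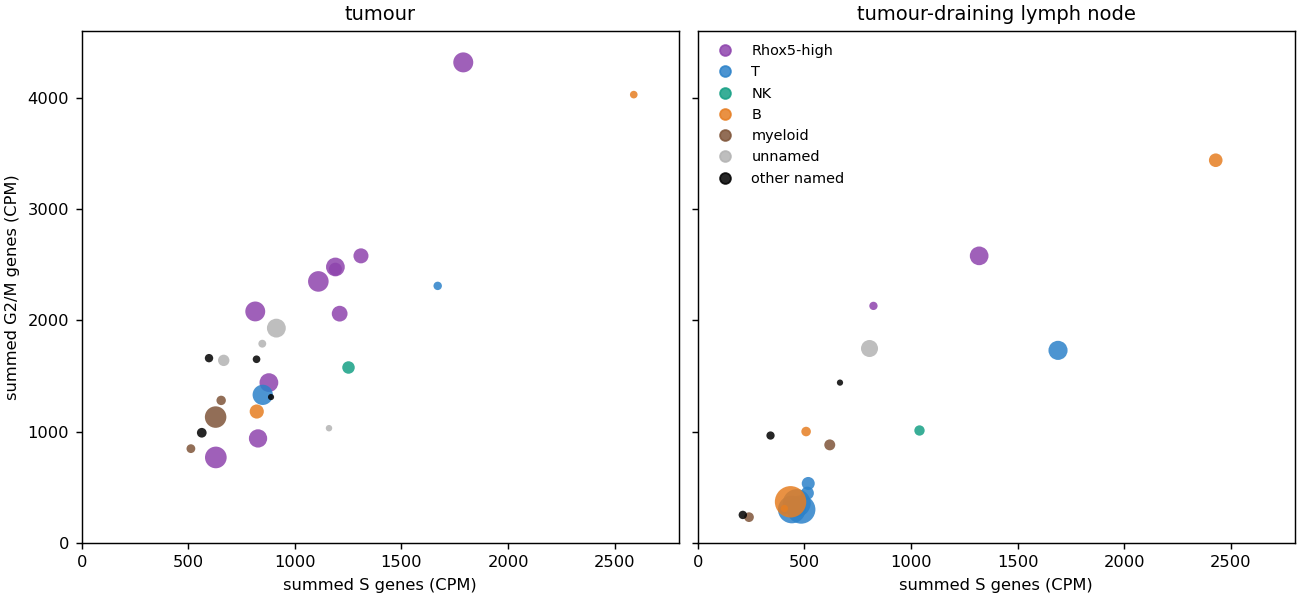
Summed S level (horizontal axis, CPM) against summed G2/M level (vertical axis, CPM) of each cluster, both libraries of a tissue together, with dot area growing with the number of cells and colour giving the class. The Rhox5-high cluster at 1790 and 4320 CPM and the germinal-centre B clusters stand at the upper right, and most TDLN T clusters lie at the lower left.

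The members of each set varied together from cell to cell in tumour Rhox5-high cells. Cells were thinned to 10000 UMIs each, which kept 5062 NanoCa and 4275 mock cells and left out 1272 and 1074 shallower ones, and Pearson correlations of log values were taken over cells as a description. The median over the 276 pairs of G2/M genes was 0.423 with NanoCa and 0.441 with mock. It was 0.230 and 0.266 over the 120 pairs of S genes, and 0.0586 and 0.0833 over the 384 pairs that joined an S with a G2/M gene. The closest pair in both libraries was Ube2c and Birc5 (0.756 and 0.757), and Cenpa with Pttg1 reached 0.682 and 0.703. All 24 G2/M genes were closer to the sum of their own set than to that of the other in both libraries. Of the S genes, 14 of 16 with NanoCa and 15 of 16 with mock were. The exceptions were the ribonucleotide reductase genes: Rrm2 correlated at 0.543 with the other S genes and 0.544 with the G2/M genes (0.552 and 0.566 with mock), and Rrm1 at 0.435 and 0.438 with NanoCa. At the other end, Ung correlated with the G2/M sum at -0.0699 and -0.0382, and Mcm2 at 0.0398 and 0.0392.

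**Figure D3:**
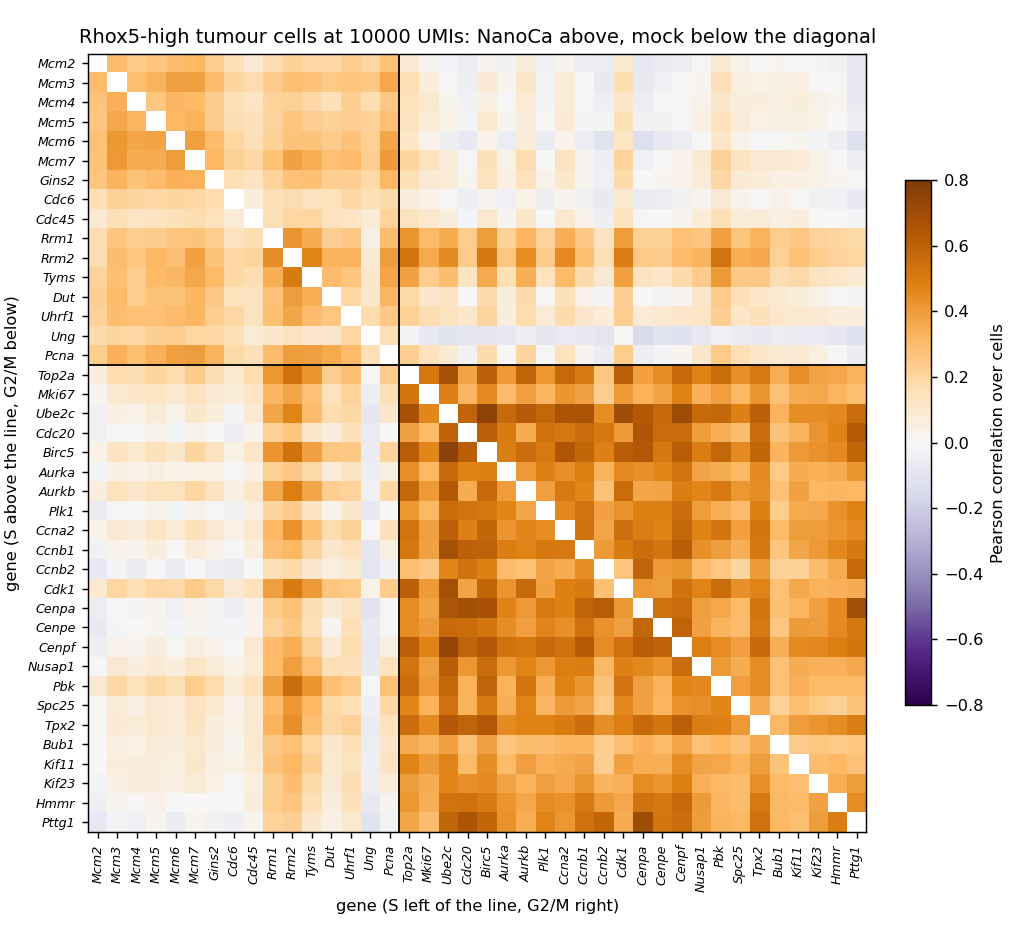
Pearson correlation over tumour Rhox5-high cells at 10000 UMIs for each pair of the 40 genes, which are listed on both axes, NanoCa above the diagonal and mock below, with lines between the S and the G2/M genes. The G2/M block is the strongest (median 0.423 and 0.441), the S block weaker (0.230 and 0.266), and the Rrm1 and Rrm2 rows extend into the G2/M block.

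G2/M UMIs were spread unevenly over these cells. At 10000 UMIs the median Rhox5-high tumour cell held 6 G2/M UMIs with NanoCa and 4 with mock, while the 90th percentile was 60 and 54. The spread of the S sum was narrower, with medians of 9 and 7 and 90th percentiles of 25 and 23 UMIs. Cells were ranked by S UMIs and split into 10 equal bins. With NanoCa the mean was 5.78 G2/M UMIs in the bin with the fewest S UMIs, 32.1 and 32.2 in bins 6 and 7, and 20.7 in the bin with the most. With mock it was 4.43 in the first bin, 29 and 28.8 in bins 7 and 8, and 20.4 in the last. Cells with the most S UMIs were thus not those with the most G2/M UMIs in either library. Outside the 40 genes, 2226 had at least 0.5 UMIs per 10000 in both libraries. Nearest to the G2/M sum among these was Hmgb2, a chromatin protein gene (0.811 and 0.794), followed by Cks1b, H2az1, Anln, Prc1 and Smc4. Nearest to the S sum were Pclaf, which encodes a PCNA-binding factor (0.575 and 0.596), Tuba1b, Stmn1, H2az1, Tk1 and Dek, of which Tuba1b, Stmn1 and H2az1 correlated more with the G2/M sum in both libraries.

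The NanoCa to mock comparison asked how treatment altered proliferation genes in each class. A member was called higher or lower where both libraries together gave 50 UMIs or more, the CPM differed at least 1.5-fold and the interval of the ratio left out 1. In tumour Rhox5-high cells 1 of 40 genes was called, the cyclin gene Ccna2, at 85.2 CPM with NanoCa and 51.5 CPM with mock (log2 0.73, 0.68 to 0.77). Of all 13782 genes tested there, 5.83% were called higher and 3.77% lower. A count of 1 of 40 does not exceed that share, so no result on the set is read from it, and Ccna2 is described as a single gene. The summed sets were higher with NanoCa by 1.11-fold for S genes (log2 0.155, 0.144 to 0.165) and 1.12-fold for G2/M genes (log2 0.163, 0.155 to 0.17), against a median log2 of 0.015 over all genes. The S genes ran from -0.12 for Mcm4 to 0.39 for Dut, and 14 of 16 were above 0. The other G2/M genes ran from -0.07 for Cenpe to 0.27 for Birc5. Ccna2 therefore lay apart from its partner Cdk1 (147 and 123 CPM, log2 0.26) and from the cyclins Ccnb1 (61.9 and 57.0 CPM, log2 0.12) and Ccnb2 (67.6 and 57.3 CPM, log2 0.24).

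The Ccna2 difference was not confined to 1 cluster of the tumour. Clusters come from the same NanoCa and mock library, so they are not replicates, and a shift of a whole library would appear in each. Ccna2 was higher with NanoCa in 10 of 10 Rhox5-high clusters, from log2 0.09 (113 and 106 CPM) to 1.08 (31.9 and 15.1 CPM), and 9 of the intervals lay above 0. In the cluster with the highest G2/M level it was at 171 and 123 CPM (log2 0.47, 0.39 to 0.56), while the summed G2/M level there was 4340 and 4310 CPM. Dut was also higher in 10 of 10 clusters (log2 0.20 to 0.66), and each summed set in 9 of 10, so that the sets ran from log2 -0.06 to 0.37 for S and -0.15 to 0.375 for G2/M genes. The makeup of the class differed between the libraries: 473 cells with NanoCa and 51 with mock fell in a cluster led by Krt8, Glod5 and Afp, and 724 and 953 in the matrix-gene cluster. With each cluster given the same weight in both libraries, the log2 ratio was 0.12 for S and 0.11 for G2/M genes. Outside this class, Ccna2 was called higher in tumour B cells (127 and 63.2 CPM, log2 1.01) and myeloid cells (43.5 and 26.1 CPM, log2 0.74). It was at 59.5 and 44.6 CPM in tumour T cells and at 40.6 and 61.9 CPM in NK cells, neither called. How much Ccna2 of the immune classes came from Rhox5-high cells as free RNA was not tested. Ccna2 overlaps Exosc9 on the opposite strand only.

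In tumour T cells 1 of 15 tested S genes was called higher, Ung (18.9 and 10.1 CPM, log2 0.90, 0.11 to 1.69, on 32 and 27 UMIs). Of 24 G2/M genes 1 was called higher, Cdc20 (62.5 and 39.0 CPM, log2 0.68, 0.28 to 1.09). No member was called lower, where 6.24% of all genes were called higher and 2.98% lower. The summed G2/M ratio was log2 -0.001 (-0.07 to 0.07). The S ratio was -0.09 (-0.18 to -0.01) and turned to 0.115 where each cluster was given equal weight in NanoCa and mock. NK cells had 1 of 17 tested G2/M genes called lower, Cenpf, a kinetochore gene (38.0 and 78.8 CPM, log2 -1.05, -1.71 to -0.44). None of their 13 tested S genes was called, against 5.38% of genes called higher and 2.39% lower. The summed G2/M ratio of NK cells was -0.27 (-0.38 to -0.16). Myeloid cells had Ccna2 as their 1 called gene of 16 S and 24 G2/M genes, beside 7.67% of genes called higher and 2.74% lower. Their summed ratios were 0.02 for S genes and 0.12 for G2/M genes. The calls in T, NK and myeloid cells are too few to set apart from the shares over all genes. No result on the sets is read from these calls.

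Tumour B cells had 6 of 14 S genes with enough UMIs called higher and none lower, beside 7.38% of all genes higher and 3.13% lower. These were Rrm2 (131 and 67.1 CPM, log2 0.96), Dut (277 and 173 CPM, log2 0.68), Uhrf1 (73.2 and 40.0 CPM, log2 0.87), Mcm2 (81.5 and 46.5 CPM, log2 0.81), Tyms and Mcm5. Of 24 G2/M genes, Ccna2 was the 1 called. The summed S ratio was log2 0.44 (0.33 to 0.56), with 13 of 14 genes above 0, and the G2/M ratio 0.03 (-0.06 to 0.125). The S difference depended on the setting. Without doublet removal, where cells were also clustered and named anew, no S gene was called, 6 G2/M genes were, and the summed ratios were 0.06 and -0.28. Germinal-centre B cells, 67 with NanoCa and 32 with mock, held 63.3 and 52.3% of the S UMIs of the class. The summed S ratio was log2 0.493 (0.335 to 0.654) in these few cells and 0.166 (-0.0143 to 0.348) in B cells outside the germinal centre.

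In TDLN, B cells had the most members called. Of 24 G2/M genes 17 were called lower with NanoCa and none higher, and of 16 S genes 7 were lower and none higher, where 8.47% of all 10749 genes were called lower and 3.67% higher. All 40 members lay below 0. The summed G2/M level was 1083 and 1833 CPM (log2 -0.76, -0.79 to -0.73) and the summed S level 919.0 and 1345 CPM (log2 -0.55, -0.585 to -0.51), against a median of -0.02 over all genes. Ube2c was at 85.8 CPM with NanoCa and 198 CPM with mock (log2 -1.21, -1.32 to -1.10), Ccnb1 at 21.0 and 45.9 CPM (log2 -1.13), Cdk1 at 36.4 and 74.9 CPM (log2 -1.04) and Birc5 at 77.6 and 151 CPM (log2 -0.96). Among S genes Dut was at 128 and 229 CPM (log2 -0.84), Rrm2 at 54.9 and 102 CPM (log2 -0.90), Tyms at 23.9 and 45.2 CPM (log2 -0.92) and Gins2 at 15.9 and 29.5 CPM (log2 -0.89). The helicase genes Mcm2 to Mcm7 were not among the 7, and the G2/M genes not called included Top2a, Mki67 and Cenpa (113 and 142 CPM, log2 -0.33).

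The germinal-centre cluster made up a different share of B cells in each library. It held 221 of 2553 B cells (8.66%) with NanoCa and 365 of 1995 (18.3%) with mock, and 77.5 and 85.4% of the G2/M UMIs of the class. Within that cluster none of the 40 genes was called, where 2.88% of all genes were called higher and 4.81% lower. There the summed S level was 2489 and 2392 CPM (log2 0.06, 0.02 to 0.10) and the summed G2/M level 3350 and 3501 CPM (log2 -0.06, -0.10 to -0.03). Single genes there differed beyond counting error, as did Ube2c (269 and 374 CPM, log2 -0.47, -0.595 to -0.355) and Ccnb1 (68.3 and 92.1 CPM, log2 -0.43), while Mcm4 was at 197 and 160 CPM (log2 0.30) and Mki67 at 333 and 285 CPM (log2 0.22). With equal cluster weights in both libraries the class ratios were -0.04 for S and -0.15 for G2/M genes. B cells outside the cluster held less of either set, 394.6 and 498.3 CPM of S genes and 325.4 and 482.7 CPM of G2/M genes, with ratios of -0.34 and -0.57. In these cells 16 of 24 G2/M genes and 6 of 15 tested S genes were called lower and none higher, where 7.2% of all genes were called lower and 2.11% higher. Rhox5 was at 12.9 and 21.8 CPM in them, and its part in the difference was not tested. At the fixed ratio used above, G2/M transcripts carried along with it would come to 27.9 and 31.3% of their G2/M level.

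TDLN T cells had 4 of 16 S genes and 5 of 24 G2/M genes called lower and none higher, where 7.83% of all genes were called lower and 2.15% higher. All 24 G2/M genes lay below 0, with a summed log2 ratio of -0.37 (-0.40 to -0.335) against -0.21 (-0.24 to -0.18) for the S genes. Ube2c was at 44.3 and 74.8 CPM (log2 -0.76), the spindle gene Tpx2 at 14.1 and 22.7 CPM (log2 -0.69), Uhrf1 at 13.3 and 20.7 CPM (log2 -0.63), Ccnb1 at 8.36 and 12.9 CPM (log2 -0.62) and Cdc6 at 3.92 and 6.49 CPM (log2 -0.73). Gins2, Ung, Plk1 and Pbk were also called. Without doublet removal 1 of the S genes (Cdc6) was past the limit, and under TMM scaling 2 (Cdc6 and Uhrf1). Ccnb1 was at -0.58 without doublet removal, short of 1.5-fold, which left 4 G2/M genes. Rhox5 in these cells was at 10.7 and 19.1 CPM, and G2/M transcripts carried along with it would come to 75.2 of 500.3 CPM and 132 of 645.3 CPM. In the Foxp3-high cluster of mixed markers the summed G2/M level was 1640 and 1830 CPM (log2 -0.16), and in the 3 clusters with naive markers the log2 ratios were -0.31, -0.52 and -0.38 on low levels.

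TDLN NK cells had 4 of 12 tested S genes and 7 of 14 tested G2/M genes called lower and none higher, where 5.72% of all genes were called lower and 7.41% higher, on 112 and 174 cells. Ube2c was at 39.9 and 141 CPM (log2 -1.83, -2.47 to -1.24), Mcm3 at 44.3 and 98.3 CPM (log2 -1.15), Ccna2 at 19.2 and 49.5 CPM (log2 -1.37) and Pttg1 at 56.1 and 106 CPM (log2 -0.92). The summed ratios were -0.325 (-0.465 to -0.19) for S genes and -0.51 (-0.65 to -0.36) for G2/M genes. Birc5 was at 79.7 and 94.3 CPM and Cenpa at 102 and 109 CPM, with intervals that included a ratio of 1.

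TDLN myeloid cells differed in the other direction. Of 24 G2/M genes 12 were called higher with NanoCa and none lower, and of 14 tested S genes Tyms was called higher (33.9 and 21.4 CPM), where 5.74% of all genes were called higher and 7.88% lower. Without doublet removal no S gene was called. Top2a was at 89.4 and 51.0 CPM (log2 0.81, 0.54 to 1.08), Cenpf at 28.2 and 13.7 CPM (log2 1.04), Pttg1 at 64.9 and 37.1 CPM (log2 0.81) and Ccnb2 at 26.5 and 13.4 CPM (log2 0.98). The summed G2/M ratio was 0.60 (0.52 to 0.69) and the S ratio 0.28 (0.18 to 0.38). These intervals take UMIs as independent, although few cells held many G2/M UMIs. With cells thinned to 2000 UMIs, 20 of 229 NanoCa and 25 of 331 mock cells had at least 3. The ratio of those shares was log2 0.21 (-0.715 to 1.12), an interval that included a ratio of 1. Monocytes and macrophages, 124 and 212 cells, carried 90.7 and 87.7% of the G2/M UMIs, at 1140 and 696.0 CPM (log2 0.71, 0.62 to 0.80), while mature dendritic cells (109 and 129 cells) held 236 and 225 CPM. Rhox5 was at 6.72 and 8.96 CPM in the class, and its part in the difference was not tested. Thinned to 2000 UMIs per cell, the summed G2/M ratio was 0.33.

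TDLN Rhox5-high cells had no member called, where 7.29% of all genes were called higher and 6.6% lower. Their sets went apart: the summed S ratio was -0.17 (-0.19 to -0.15), with 13 of 16 genes below 0, and the summed G2/M ratio 0.20 (0.19 to 0.22), with 19 of 24 genes above 0. Dut was at 187 and 262 CPM (log2 -0.48), Pcna at 158 and 201 CPM (log2 -0.35), Cenpe at 94.8 and 68.0 CPM (log2 0.48) and Ccna2 at 102 and 77.2 CPM (log2 0.41). These values rested on 329 and 1025 cells, and the 2 clusters of the class went apart for the summed G2/M genes. The larger (291 and 924 cells) was at log2 0.22 (0.20 to 0.23), and the smaller (38 and 101 cells) at -0.41 (-0.515 to -0.31).

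**Figure D4:**
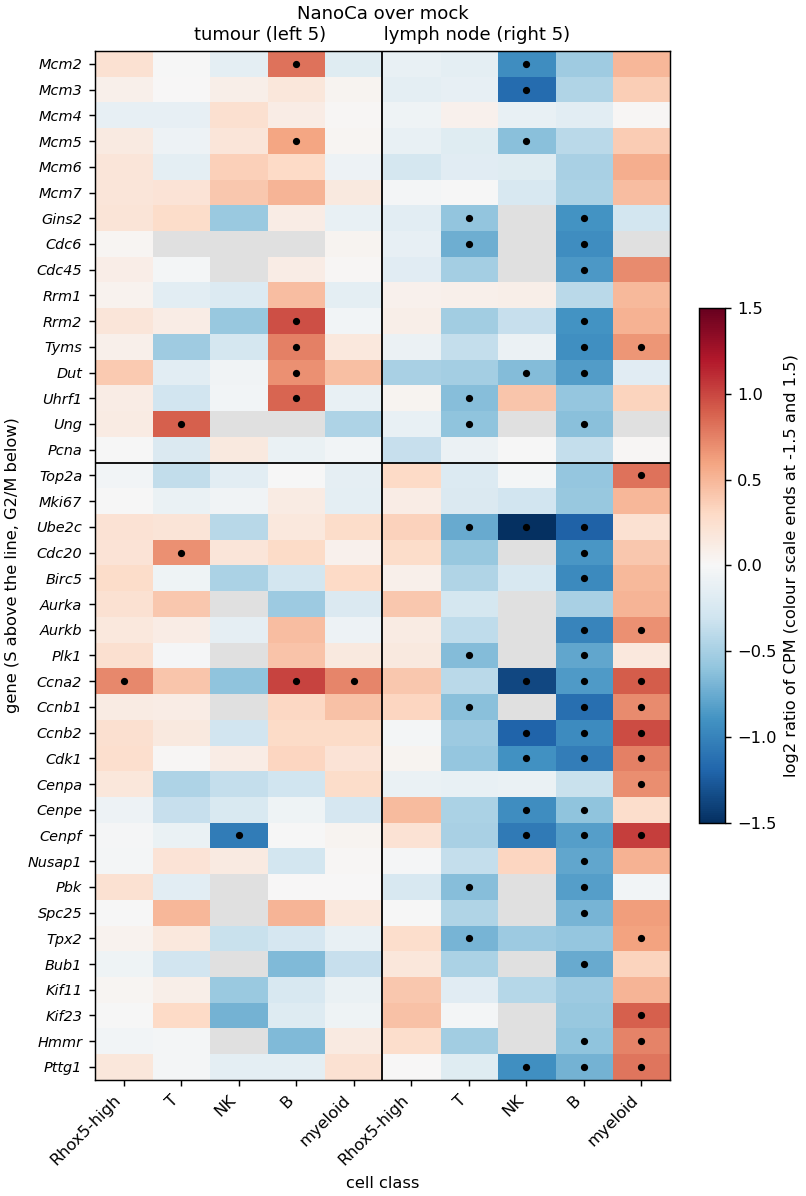
NanoCa to mock log2 ratio of CPM for each of the 40 genes (rows) in the 5 cell classes of the tumour and of the lymph node (columns), on a colour scale that ends at -1.5 and 1.5. TDLN B cells are below 0 for all 40 genes, TDLN myeloid cells are above 0 for 23 of 24 G2/M genes, and Ccna2 stands out in tumour Rhox5-high cells at 0.73.

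Shares of cells with G2/M transcripts were compared after each cell was thinned to 2000 UMIs. At least 3 G2/M UMIs were found in 40.4% (39.2 to 41.7, exact Clopper-Pearson, 6222 cells) of tumour Rhox5-high cells of the NanoCa library and 34.8% (33.5 to 36.1, 5265 cells) in the mock library (log2 0.22, 0.13 to 0.30). Without thinning the shares were 78.2 and 78.3%. Tumour T cells had shares of 34.4 and 33.5%, NK cells 26.4 and 27.3%, B cells 49.4 and 39.3% and myeloid cells 19.0 and 16.9%. The interval of each of these ratios, which treats the cell counts as Poisson and is thus wider than a binomial one, included 1. Thinning left out 375 of 715 and 238 of 883 T cells, 45 and 26 NK cells, 313 of 475 and 106 of 269 B cells and 195 and 152 myeloid cells as too shallow. Neutrophils, used as a class that should lack these transcripts, had 26 of 88 (29.5%) and 42 of 128 (32.8%) without thinning at median depths of 1326 and 1591 UMIs. Thinned, 2 of 7 (28.6%) and 8 of 21 (38.1%) remained, with intervals of 3.67 to 71.0% and 18.1 to 61.6%, so the thinned shares of tumour immune cells were not shown to exceed this background. Unthinned shares were 39.0 and 46.7% in T, 44.6 and 52.8% in NK, 38.5 and 51.3% in B and 49.6 and 53.0% in myeloid cells. The order of NanoCa and mock thus turned with thinning in T, B and myeloid cells, at median depths of 1951 and 2397, 1773 and 2117, and 5043 and 5933 UMIs, and no direction is read from these shares.

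In TDLN the shares were lower. T cells had 3.74% (3.27 to 4.26, 5879 cells) in the NanoCa library and 6.51% (5.83 to 7.24, 4827 cells) in the mock library (log2 -0.80, -1.05 to -0.54). B cells had 7.07 and 15.2% (log2 -1.10, -1.38 to -0.82). Among germinal-centre B cells alone, 43.9 and 44.9% of the cells reached the limit. Rhox5-high cells had 42.3 and 39.5%, NK cells 10.2 and 11.2%, and myeloid cells 8.73 and 7.55%. The interval of the ratio included 1 in each of these classes. It was log2 0.0989 (-0.191 to 0.382) in Rhox5-high, -0.143 (-1.36 to 1.0) in NK and 0.21 (-0.715 to 1.12) in myeloid cells. Without thinning T cells had 15.4 and 25.4%, B cells 19.5 and 33.7%, NK cells 25 and 40.8%, myeloid cells 33.5 and 44.0% and Rhox5-high cells 82.4 and 86.0%, so the order of the last 2 classes turned. Beside the T cells, of which 5879 of 6316 and 4827 of 5078 were kept, thinning left out 163 and 115 B cells and at most 13 cells of any other class. On unthinned counts, where deeper cells weigh more, the 5% of TDLN B cells richest in G2/M UMIs carried 76.6 and 72.6% of them. The figures were 30.8 and 35.6% in tumour Rhox5-high cells.

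**Figure D5:**
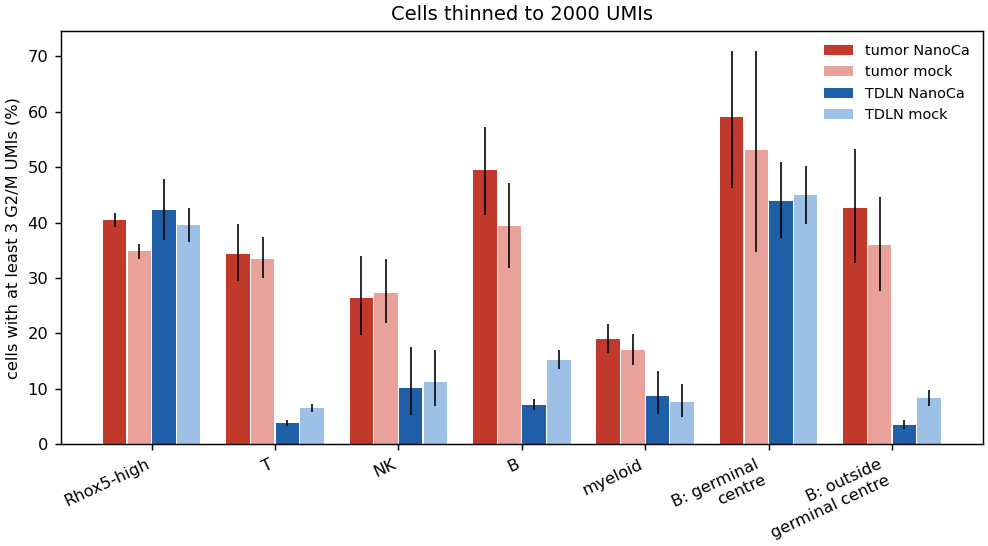
Share of cells with at least 3 G2/M UMIs (vertical axis, percent) after thinning each cell to 2000 UMIs, by class and library, with exact Clopper-Pearson 95% intervals. Without the separate parts of the B class, tumour classes lie between 16.9 and 49.4%, and TDLN T cells at 3.74 and 6.51% are the lowest. Germinal-centre B cells lie higher, at 59.1% in tumour NanoCa.

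Other cell cycle genes were counted over lists of replication, mitosis, G1 and quiescence genes that hold none of the 40. Over all genes, 8.47% were called lower and 3.67% higher in TDLN B cells, and 7.83 and 2.15% in TDLN T cells. In TDLN myeloid cells 7.88% were called lower and 5.74% higher. In TDLN B cells 28 of 49 further mitosis genes were called lower and none higher, with a median log2 of -0.66, among them Cdca3 (26.5 and 57.5 CPM) and Cks1b (77.0 and 152 CPM). Of 35 further replication genes 11 were lower and none higher, such as the histone chaperone gene Chaf1a (8.97 and 20.6 CPM), with a median of -0.49, while over all genes of that class the median was -0.02. Of 16 tested quiescence genes 3 were higher and none lower: Klf2, a gene that keeps lymphocytes quiescent (1560 and 630 CPM, log2 1.31), Txnip (221 and 106 CPM) and the inhibitor gene Cdkn1b (82.3 and 48.1 CPM, log2 0.77). Of 23 tested G1 genes 3 were higher and 5 lower. The higher ones were Cdkn1b again and the growth-promoting Myc (202 and 124 CPM, log2 0.70) and Ccnd2 (85.4 and 56.3 CPM, log2 0.60), and the lower ones included E2f8, E2f1, Ccnd1 (25.4 and 43.3 CPM) and Cdkn2c. In TDLN T cells 11 of 49 mitosis genes were lower and none higher (median -0.32). Of 16 quiescence genes Klf2 (2210 and 1440 CPM) and Txnip were higher and Klf4 (12.9 and 25.2 CPM) lower, and of 26 G1 genes Ccnd1 (22.2 and 44.6 CPM), E2f8 and Ccne1 were lower and none higher. That G1 count lies near the share over all genes, and no result on the list is read from it. In TDLN myeloid cells 11 of 36 tested mitosis genes were higher and 1 lower (median 0.50), with Kif4 at 14.1 and 4.98 CPM.

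In tumour Rhox5-high cells none of 49 mitosis genes and 1 of 35 replication genes was called, Chaf1a (19.6 and 10.3 CPM, log2 0.93). Of 23 tested G1 genes 2 were higher: the cyclin E gene Ccne1 (20.3 and 8.07 CPM, log2 1.33, 1.22 to 1.44) and E2f4, an E2F factor of the DREAM complex (107 and 56.3 CPM, log2 0.93, 0.89 to 0.97). Over all genes of that class 5.83% were called higher and 3.77% lower, so 2 of 23 lies near the share over all genes. E2f4 was called higher with NanoCa in each of the 5 tumour classes, at 77.2 and 45 CPM in T, 70.7 and 46.6 CPM in NK, 77.8 and 31.0 CPM in B and 56.3 and 32.0 CPM in myeloid cells. The classes of a library share its free RNA, so these calls are not separate results. How much E2f4 of the immune classes came from Rhox5-high cells was not tested. In TDLN Rhox5-high cells Ccne1 was lower, at 19.9 and 29.9 CPM (log2 -0.59).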

How the data were processed

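Single-cell RNA-seq (10x Genomics 3′ v2) of 4 libraries was analysed. The authors deposited raw counts of UMIs, made with Cell Ranger 7.1.0 per the file headers. No source used here names the genome build. The cell filter asked for 200 genes or more and no more than 10% mitochondrial UMIs. Doublets were scored with Scrublet (scanpy 1.11.5) and removed at 0.8% per 1000 barcodes (689 to 1006 per library). Both libraries of a tissue entered 1 clustering, with no integration, on 2000 variable genes that excluded the 40 members and other cell cycle lists, with 30 principal components, 15 neighbours and Leiden resolution 1 (leidenalg 0.10.2). Clusters were named by at least 3 markers of a fixed list. Rhox5-high clusters had Ptprc and Xist below 20% of the median of the immune clusters and at least 3 carcinoma markers at 5 CPM or more.

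Sums of UMIs for each class of a library were scaled to CPM, with exact Poisson intervals for levels and exact conditional binomial intervals for ratios (scipy 1.17.1, 95%). Both take each UMI as independent, so they are too narrow where few cells hold many UMIs of a set. Members under 50 UMIs over both libraries of a class were not called, and a gene at 0 would be set against a floor of 3 counts. On Poisson counts simulated with known changes, 98.0% of doubled or halved genes were called in tumour Rhox5-high cells (13791 genes), 85.7% in tumour NK (4895 genes) and 100.0% in TDLN B cells (10750 genes), and 0.434, 2.21 and 0.644% of unchanged genes. The simulation held counting error only, so it cannot show how often libraries of 1 group would differ. edgeR 4.0.16 gave TMM factors for an alternative only. Promoters came from a RefSeq table (GRCm38.p6) and gene overlaps from GENCODE vM21.

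The members and lists were chosen with earlier results of these data known. Values in each class were given for the 3 S and 3 G2/M genes with the most UMIs and for called members, at most 4 in each direction ranked by the interval bound nearest to 1, with further names where a sentence needed them. Of the other cycle genes, at most 4 called ones per list, class and direction were named. The genes nearest to each set were the 6 with the highest correlation by the lower of the tumour libraries.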

Additional observations from a re-analysis of the deposited data

Results flagged for a closer look

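For 7 results, 2 summed sets with intervals that excluded 0 in each tissue and 5 single genes called in each tissue at 1.5-fold or more, the NanoCa to mock ratio lay above 0 in 1 tissue and below 0 in the other. By intervals alone, without the fold limit, 25 single genes did so (12 in Rhox5-high, 9 in B and 4 in T cells), the 5 included. These differences between tissues were not tested, since each group held 1 library. The summed S genes of Rhox5-high cells had log2 ratios of 0.155 in the tumour and -0.172 in TDLN, a difference of -0.327. In B cells the summed S genes had 0.443 in the tumour and -0.55 in TDLN, a difference of -0.993. Single genes of B cells in the same position were Rrm2 (0.964 and -0.898, difference -1.86), Tyms (0.754 and -0.919, difference -1.67), Dut (0.682 and -0.841, difference -1.52) and Ccna2 (1.01 and -0.849, difference -1.86). The tumour values of Rrm2, Tyms and Dut fell to 0.024, 0.159 and 0.286 without doublet removal. In T cells Ung had 0.899 in the tumour, on 32 and 27 UMIs, and -0.598 in TDLN, a difference of -1.5.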

How the results depend on the processing

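No paired analysis was possible because each group held 1 library, and no library could be left out. Values are log2 NanoCa to mock ratios of summed genes unless said otherwise, and the cause of a change was not tested. Over all alternatives, 338 ratios of called members stayed within their intervals and 7 did not. Summed sets were less stable: 53 S ratios stayed, 14 moved and 1 reversed, and 49 G2/M ratios stayed and 19 moved. Of the numbers of called genes, 55 stayed and 15 moved for S, and 62 stayed and 8 moved for G2/M genes. With each cluster given its mean share of the class in NanoCa and mock, the S ratio of tumour T cells reversed to 0.115, and that of tumour Rhox5-high, TDLN T and TDLN B cells was 0.123, -0.151 and -0.0405. G2/M ratios under it were 0.111 (tumour Rhox5-high), 0.149 (tumour T), -0.0655 (tumour B), -0.292 (TDLN T) and -0.152 (TDLN B). Without doublet removal, S ratios were 0.122 (tumour Rhox5-high), 0.061 (tumour B), -0.167 (TDLN T) and -0.633 (TDLN B), and G2/M ratios -0.277 (tumour B), -0.305 (TDLN T) and -0.871 (TDLN B). Calls without it were 0 S and 6 G2/M genes in tumour B, 1 S gene in TDLN T and 0 in TDLN myeloid cells. With cells thinned to 2000 UMIs, S ratios were 0.205 (tumour Rhox5-high), 0.657 (tumour B), -0.116 (TDLN Rhox5-high), -0.498 (TDLN NK) and -0.395 (TDLN B). G2/M ratios were then 0.226, 0.43, 0.0957 and -0.668 in tumour Rhox5-high, tumour B, TDLN Rhox5-high and TDLN B cells, 0.0743 and -0.423 in tumour and TDLN T cells and 0.326 in TDLN myeloid cells. TMM scaling moved S ratios to -0.0524 (tumour myeloid) and -0.254 (TDLN Rhox5-high), and G2/M ratios to 0.0453, 0.121 and -0.725 (tumour myeloid, TDLN Rhox5-high, TDLN B). Under TMM, S calls were 2 in tumour T, 1 in tumour NK and 2 in TDLN T cells, and G2/M calls 2 in tumour NK cells. At most 5% mitochondrial UMIs gave 0.218 for G2/M genes of TDLN Rhox5-high cells. With a 1.2-fold limit S calls were 1, 2, 1 and 1 in tumour Rhox5-high, T, NK and myeloid cells and 2, 8, 15 and 6 in TDLN Rhox5-high, T, B and myeloid cells. G2/M calls were then 2, 4, 3 and 6 in the same tumour classes, and 9 and 17 in TDLN Rhox5-high and T cells. A minimum of 10 UMIs gave 3 S calls in TDLN myeloid cells. For the share of cells with G2/M UMIs, the log2 ratio was -0.735 in TDLN B cells at 2 UMIs, -0.382 in TDLN T cells at 5 UMIs and -1.59 in TDLN NK cells thinned to 1000 UMIs. Few cells and low depth limited tumour B, NK and TDLN NK values.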
